A study of Homo sapiens with 12 samples.

Results

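A hairpin against the creatine transporter gene SLC6A8 (shSLC6A8) was set against a control hairpin (shNC) in a pair of established human hepatocellular carcinoma lines, Hep3B and Huh7, and the question taken here is where the lines answered differently. All 12 mRNA libraries of the series entered, joined by gene identifier over its 2 tables. They form 4 groups of 3 libraries: Hep3B with shSLC6A8, Hep3B with shNC, Huh7 with shSLC6A8 and Huh7 with shNC. Every group, controls included, had been kept in hypoxia for 24 hours, so no comparison with normal oxygen is made. For each gene, the knockdown effect is the log2 fold change of shSLC6A8 over shNC within a line, and the difference of response is the Hep3B effect minus the Huh7 effect, so that a positive value means a higher response in Hep3B. Of 62703 genes listed, 18570 had enough reads to be tested. The labels name 1 hairpin per target and do not say whether the 3 libraries of a group came from separate cultures, and the p-values below reflect only how these libraries scatter, a scatter that may be technical.

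SLC6A8 carries creatine into the cell, where creatine kinases use it to store and move high-energy phosphate, and oxygen shortage is known to raise the gene in tumours. Hepatocyte-derived lines keep much of the liver's programme, such as secretion of plasma proteins, nitrogen disposal and lipid handling, and they run it beside the programmes of growth and stress that tumour cells share.

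Library totals were 24201940 to 27445278 estimated counts in Hep3B shSLC6A8, 21065965 to 23237892 in Hep3B shNC, 23748949 to 28078068 in Huh7 shSLC6A8 and 23156031 to 24565972 in Huh7 shNC. Levels are given as CPM (reads of a gene scaled to a common library size) after TMM scaling, which corrects library size for a few dominant genes. The 6 hepatocyte markers (ALB, APOA1, APOB, TTR, HNF4A and SERPINA1) summed to 12800 to 13800 CPM in Hep3B shSLC6A8, 19400 to 20400 in Hep3B shNC, 11400 to 11700 in Huh7 shSLC6A8 and 8010 to 8290 in Huh7 shNC. The 4 leukocyte markers stayed at or under 1.40 CPM in sum in every library and the 3 endothelial ones at or under 5.51. The 5 stellate or fibroblast markers summed to 9.35 to 10.9 CPM in Hep3B shSLC6A8 against 13.8 to 15.2 in Hep3B shNC, and to 17.9 to 19 in Huh7 shSLC6A8 against 21.2 to 21.8 in Huh7 shNC. The 5 cholangiocyte markers, some of which hepatoma lines express, summed to 852 to 965 CPM in Hep3B shSLC6A8 against 839 to 894 in Hep3B shNC, and to 510 to 551 in Huh7 shSLC6A8 against 842 to 943 in Huh7 shNC. The share of reads from mitochondrial ribosomal RNA moved with the hairpin in both lines: it was 1.13% to 1.17% in Hep3B shSLC6A8 against 2.17% to 2.20% in Hep3B shNC, and 0.705% to 0.711% in Huh7 shSLC6A8 against 1.06% to 1.12% in Huh7 shNC, and the part of this share and of these marker levels in the results was not tested.

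SLC6A8 itself (ENSG00000130821, chromosome X, 153687926 to 153696593 in GRCh38.p14) had 35.3, 34.1 and 35.6 CPM in Hep3B shSLC6A8, against 364, 381 and 373 CPM in Hep3B shNC. In Huh7 it had 8.59, 8.50 and 10.9 CPM with shSLC6A8, against 35.1, 36.3 and 36.3 CPM with shNC. The target fell in both lines with no overlap between hairpins, and the level left in Hep3B after knockdown was close to that of Huh7 control cells. The knockdown effect was -3.41 ± 0.06 in Hep3B and -1.94 ± 0.07 in Huh7 (log2, SE, n = 3 per group), a difference of -1.47 ± 0.10. The loss of the transcript was thus unequal, and the gap between the lines narrowed to 1.91 with shSLC6A8, against 3.38 with shNC.

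The response differed between the lines for a large share of the genes measured. By edgeR's quasi-likelihood test with Benjamini-Hochberg adjustment, 8754 of 18570 genes had a difference of response at an adjusted p under 0.05 (47.1% of genes tested), 4293 higher in Hep3B (23.1%) and 4461 lower (24%). The knockdown alone raised 3466 genes (18.7%) and lowered 3493 (18.8%) in Hep3B, against 5168 raised (27.8%) and 4989 lowered (26.9%) in Huh7. The median absolute effect was 0.274 in Hep3B and 0.421 in Huh7 on the log2 scale, and the median absolute difference was 0.531. Among the genes with a called difference, 3743 had an effect in Huh7 alone, 1482 in Hep3B alone, 1032 in both lines in the same direction but by unequal amounts, and 2226 in both lines in opposite directions. A further 1290 genes changed in the same direction in both lines without a called difference.

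**Figure D1:**
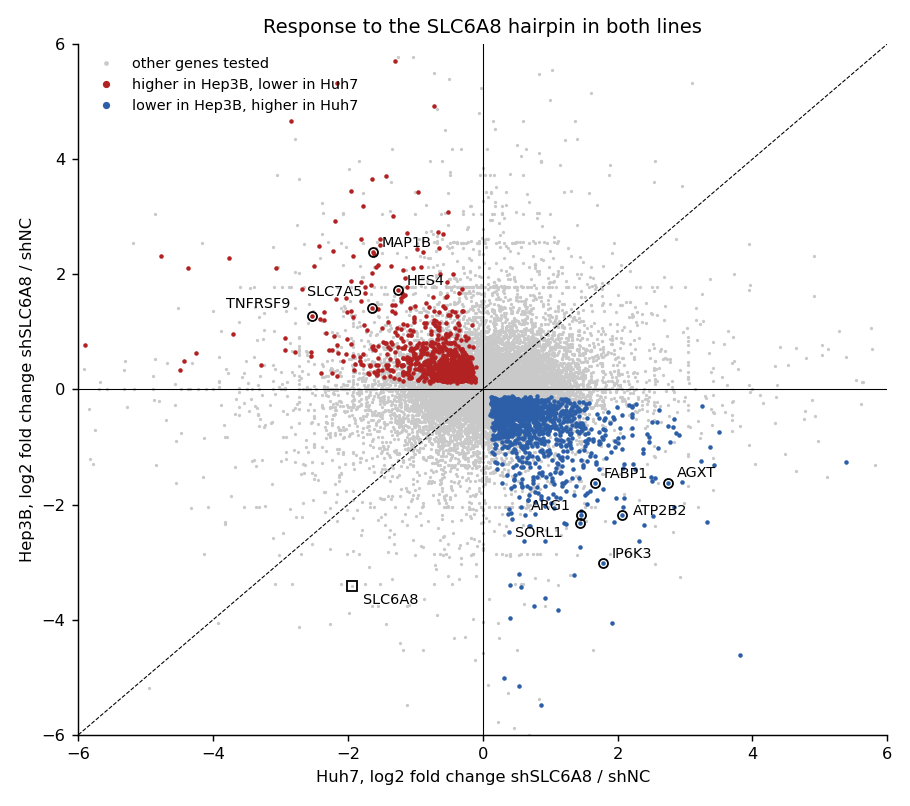
Log2 fold change of shSLC6A8 over shNC in Hep3B (vertical axis) against Huh7 (horizontal axis), 1 point per gene tested; red and blue points are the 996 and 1230 genes that moved in opposite directions, the dashed line marks equal responses, and 33 genes lie outside the axes. SLC6A8 (square) sits in the lower left, where both lines fell, while the circled genes sit in the opposite quadrants.

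Genes that moved in opposite directions were called only where both knockdown effects and their difference passed the test. Of the 2226, 996 were higher in Hep3B and lower in Huh7 (5.36% of genes tested), and 1230 were lower in Hep3B and higher in Huh7 (6.62%). For 2126 of them the hairpin groups did not overlap in either line. Both effects of these genes had already passed the test, so this count is no separate support. Most of these movements were small: both effects reached a factor of 2 for 75 genes of the first kind and 93 of the second. The balance between the kinds depends on the scaling. Scaled by library totals, the counts were 1577 and 834. That scaling moves the median of all genes to 0.20 in Hep3B, 0.10 in Huh7 and 0.10 for the difference, against 0.02, 0.01 and 0.02 under TMM, and the folds printed are those under TMM.

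The clearest genes that fell in Hep3B and rose in Huh7 included 3 of differentiated liver cells, FABP1, AGXT and ARG1, beside 5 of other roles. FABP1, which carries fatty acids in the hepatocyte cytosol, had 97.5, 91.7 and 108 CPM in Hep3B shSLC6A8, against 280, 323 and 315 CPM in Hep3B shNC. Huh7 libraries had 274, 305 and 337 CPM with shSLC6A8, against 93.6, 101 and 95.6 CPM with shNC. The lines exchanged places, and the knockdown level of each was near the control level of the other. The difference of response was -3.29 ± 0.11 (adjusted p = 3.2e-12). In bulk RNA, fewer cells that express such a gene and less of its RNA per cell cannot be told apart.

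AGXT, the peroxisomal enzyme that detoxifies glyoxylate, had 23.3, 20.3 and 22.2 CPM in Hep3B shSLC6A8, against 61.0, 71.9 and 68.6 CPM in Hep3B shNC. In Huh7 it had 6.69, 7.39 and 8.05 CPM with shSLC6A8, against 1.01, 1.01 and 1.24 CPM with shNC. Hep3B stayed the higher line, and its lead shrank to 1.57 with shSLC6A8, against 5.94 with shNC on the log2 scale. ARG1, the last enzyme of the urea cycle, shows the reverse geometry. It had 1.19, 1.69 and 1.21 CPM in Hep3B shSLC6A8, against 5.82, 5.67 and 7.21 CPM in Hep3B shNC, and 51.2, 58.9 and 55.7 CPM in Huh7 shSLC6A8, against 18.3, 22.0 and 19.9 CPM in Huh7 shNC. Huh7 was the higher line already, and its lead grew.

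The calcium pump gene ATP2B2 had 24.9, 28 and 22.3 CPM in Hep3B shSLC6A8, against 122, 113 and 108 CPM in Hep3B shNC. Huh7 libraries had 98, 91.9 and 95.2 CPM with shSLC6A8, against 24.2, 20.4 and 23.6 CPM with shNC. It fell by 2.19 in Hep3B and rose by 2.06 in Huh7 on the log2 scale, so the higher level passed from one line to the other. The sorting receptor SORL1 (difference -3.76 ± 0.21), the inositol phosphate kinase IP6K3 (-4.80 ± 0.25), the annexin ANXA13 (-3.52 ± 0.32) and TNFSF4, which encodes the OX40 ligand (-3.35 ± 0.21), followed the same pattern. IP6K3, ANXA13 and TNFSF4 were scarce, with means of 1.55, 1.41 and 3.16 CPM in Hep3B shSLC6A8.

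In the other direction stood genes of amino acid uptake, the cytoskeleton and cell surface. SLC7A5, the light chain of the transporter that imports leucine and other large neutral amino acids, had 140, 133 and 139 CPM in Hep3B shSLC6A8, against 52.2, 52.5 and 50.0 CPM in Hep3B shNC. In Huh7 it had 77.9, 69.1 and 69.4 CPM with shSLC6A8, against 236, 224 and 217 CPM with shNC. With shSLC6A8 the higher level was in Hep3B and with shNC in Huh7, so the order of the lines turned, with a difference of 3.06 ± 0.08 (adjusted p = 3.41e-14). TNFRSF9, the costimulatory receptor 4-1BB, had 24.5, 25.9 and 25.5 CPM in Hep3B shSLC6A8 against 9.34, 10.1 and 11.8 CPM in Hep3B shNC, and 6.25, 7.25 and 5.79 CPM in Huh7 shSLC6A8 against 37.2, 35 and 39.7 CPM in Huh7 shNC. Its order turned too.

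MAP1B, a microtubule-binding protein best known from neurons, rose by 2.38 ± 0.28 in Hep3B, where its level was 3.24 to 6.2 CPM with shSLC6A8 and 0.605 to 1.18 CPM with shNC, and fell by 1.63 in Huh7, where it was 20.3 to 20.9 CPM and 55.5 to 69.8 CPM. The neuropilin NRP2 (difference 2.71 ± 0.15), the Notch target HES4 (2.99 ± 0.48), the CDC42 effector CDC42EP2 (3.19 ± 0.22) and the keratin KRT10 (2.62 ± 0.41) shared the pattern. For HES4 and KRT10 a single Hep3B shSLC6A8 library stood well above the other two, at 38.4 and 28 CPM, and the groups still did not overlap in either line. The antisense transcript DYNLRB2-AS1 (3.42) completes the set, and its reads cannot be told from those of an overlapping gene without a stated strand setting. The same holds for KRT10, which has an antisense partner, and SLC7A5 has pseudogene copies that may share its reads. All 16 of these genes were called opposite under each of the alternative settings tried.

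**Figure D2:**
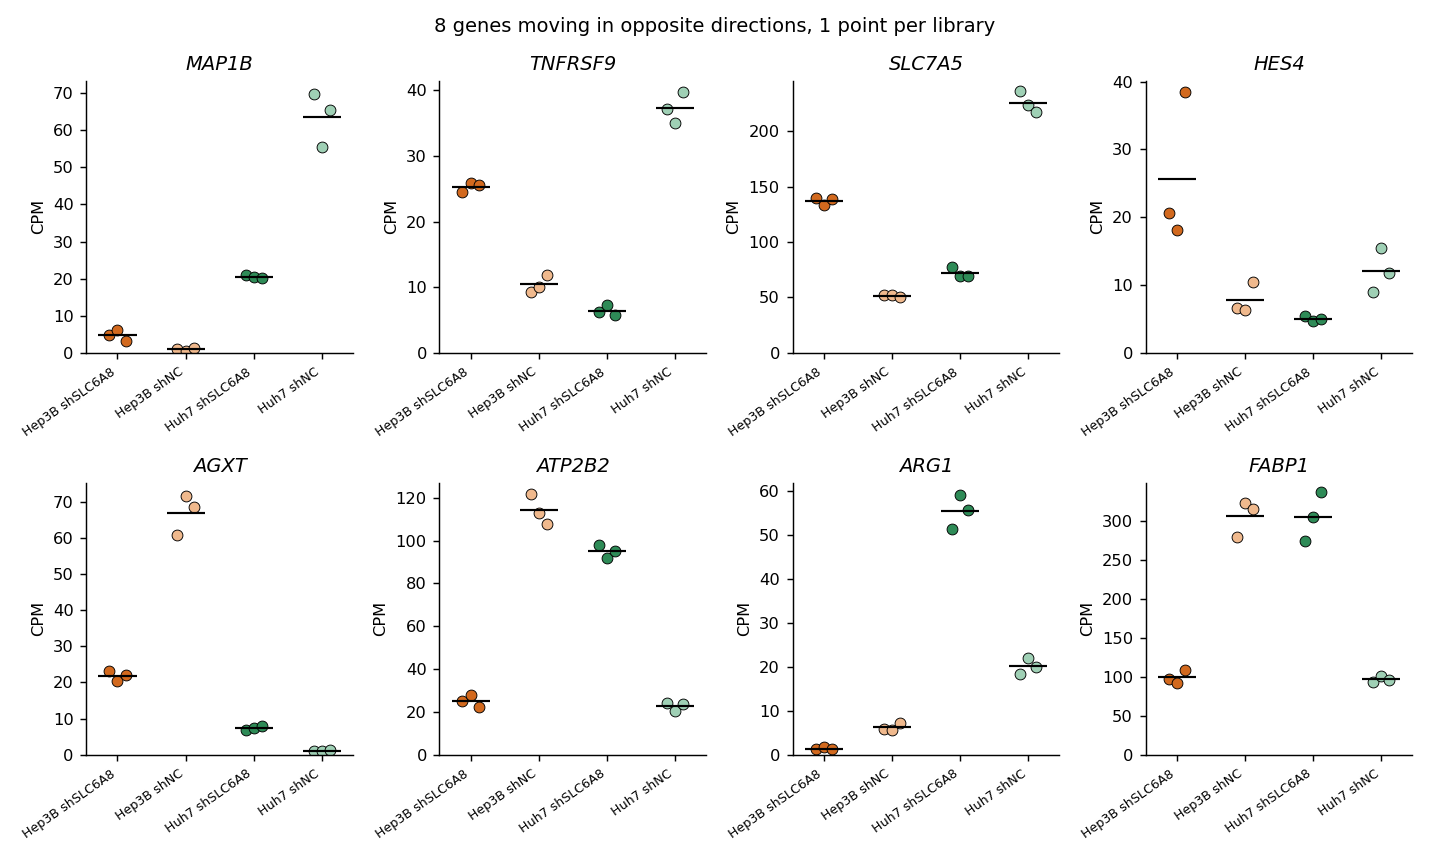
CPM per library (points) with the group mean (bar) for 8 genes that moved in opposite directions, in Hep3B shSLC6A8, Hep3B shNC, Huh7 shSLC6A8 and Huh7 shNC from left to right, 3 libraries each. The upper 4 are higher with the SLC6A8 hairpin in Hep3B and lower in Huh7, and the lower 4 the reverse, with FABP1 near 100 CPM in Hep3B shSLC6A8 and in Huh7 shNC.

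Differences of this size and larger also came from genes that moved strongly in a single line. ANKRD1, a target of the YAP and TEAD factors, had 46.2, 46.5 and 50.6 CPM in Hep3B shSLC6A8 against 30.5, 32.1 and 29.4 CPM in Hep3B shNC, and 4.88, 4.74 and 5.12 CPM in Huh7 shSLC6A8 against 91.4, 93.5 and 97.9 CPM in Huh7 shNC. Its difference of 4.90 ± 0.10 was made of 0.64 in Hep3B and -4.26 in Huh7, and the order of the lines turned. In TUBA1A, an alpha-tubulin, Hep3B carried the change: 98.9, 85.3 and 98.5 CPM with shSLC6A8 against 8.73, 8.18 and 9.27 CPM with shNC, while Huh7 had 9.19, 8.94 and 11 CPM against 18.6, 19.7 and 18.4 CPM. On the lower side, PLAC8 and the histidine-degrading enzyme HAL fell by 3.39 and 3.21 in Hep3B and rose by 0.41 and 0.53 in Huh7, whereas GPAM, which starts triglyceride synthesis, rose by 2.91 in Huh7 and fell by 0.79 in Hep3B. BACH2, MAP2 and the glucose transporter SLC2A3 had differences of 4.67 ± 0.29, 3.72 ± 0.25 and 3.62 ± 0.25, each with a large fall in Huh7.

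Promoters of a few genes are shown as examples that hold matches to short patterns. For 12477 of the tested genes RefSeq (GRCh38.p14) gives a start, and the 250 bases before it were searched on both strands for 6 short patterns: ACGTG (the core of the hypoxia response element), TGATGNAA (ATF4 composite element), TGACNNNGC (antioxidant element), GTTAAT (one arm of an HNF1 element), TTTGAA (cell cycle homology region) and CCAAT. The 150 bases before the start are printed, with matches in capitals. The same stretch held no match before ATP2B2, IP6K3, TNFSF4, ARG1, SORL1, MAP1B, NRP2, DYNLRB2-AS1 and the coagulation gene F7. FABP1 (chr2:88128063-88128212, minus strand) holds GTTAAT followed by TTTGAA. SLC7A5 (chr16:87869508-87869657, minus strand) holds a palindrome that matches ACGTG on both strands. CCNA2 (chr4:121823884-121824033, minus strand), a mitotic cyclin described below, holds CCAAT on its opposite strand, and KNG1 (chr3:186717209-186717358, plus strand), a coagulation gene, holds ACGTG on both strands and TTTGAA on the opposite one.
FABP1: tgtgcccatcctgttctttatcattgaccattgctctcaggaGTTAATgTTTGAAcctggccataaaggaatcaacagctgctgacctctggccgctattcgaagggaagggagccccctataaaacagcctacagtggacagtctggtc
SLC7A5: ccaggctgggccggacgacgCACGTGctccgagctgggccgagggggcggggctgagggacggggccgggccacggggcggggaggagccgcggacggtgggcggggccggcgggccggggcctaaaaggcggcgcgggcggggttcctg
CCNA2: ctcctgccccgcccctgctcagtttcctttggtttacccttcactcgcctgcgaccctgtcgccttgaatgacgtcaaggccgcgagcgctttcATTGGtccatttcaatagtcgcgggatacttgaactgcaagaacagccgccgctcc
KNG1: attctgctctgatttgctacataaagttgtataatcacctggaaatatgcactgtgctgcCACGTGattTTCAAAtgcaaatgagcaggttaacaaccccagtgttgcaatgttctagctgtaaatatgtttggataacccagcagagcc

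Genes that moved in opposite directions carried these patterns about as often as all genes did. GTTAAT was present before 3.61% of the genes higher in Hep3B and lower in Huh7 and 4.66% of those with the reverse pattern, against 3.86% of all windows. ACGTG was in 21% and 24.1%, against 22.6%, and CCAAT in 39.9% and 32.8%, against 35%. Within gene lists the shares were further apart: GTTAAT was in 6 of 22 windows of the coagulation list (27.3%) and in 0 of 32 of the mitosis list, while TTTGAA and CCAAT were in 53.1% and 75% of the mitosis windows, against 9.03% and 35% of all. Neither was limited to that list: TTTGAA was also in 31.8% of the coagulation windows and CCAAT in 57.7% of the ATF4 target and 52% of the proteasome windows, and TGATGNAA was in 21.1% of the plasma carrier windows, against 11.5% of the ATF4 target windows and 1.59% of all. These are matches of letters, and whether a factor binds there was not measured.

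Coagulation and plasma carrier genes, which encode secreted liver proteins, stood foremost among the lists that moved in opposite directions. In a list of 24 tested coagulation genes, 17 fell and 2 rose in Hep3B, 20 rose and 2 fell in Huh7, and 14 (58.3%) were called opposite with Hep3B lower, beside 6.62% of all genes. The median effect was -0.56 in Hep3B and 0.65 in Huh7, against 0.02 and 0.01 for all genes tested, and both kept their sign under library totals (-0.38 and 0.75). Of 27 plasma carrier genes, 13 were opposite in the same way, with medians of -0.82 and 0.53. Apolipoprotein and xenobiotic metabolism genes were more mixed. Of 18 apolipoprotein genes 5 were opposite with Hep3B lower and 3 with Hep3B higher, with medians of -0.13 and 0.09. Under library totals these counts were 4 and 0, and the Hep3B median turned to 0.05. Of 34 xenobiotic genes 1 was opposite with Hep3B lower and 4 with Hep3B higher, and in Huh7 8 rose and 12 fell.

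AHSG, the fetuin-A gene, had 737, 670 and 766 CPM in Hep3B shSLC6A8, against 3133, 3378 and 3356 CPM in Hep3B shNC. Huh7 libraries had 1033, 1004 and 1060 CPM with shSLC6A8, against 679, 691 and 649 CPM with shNC. Control Hep3B cells held the highest level of the 4 groups, and the order of the lines turned. The kininogen gene KNG1 (difference -2.49 ± 0.08) and coagulation factor VII, F7 (-2.32 ± 0.11), moved likewise. Among carriers, alpha-2-macroglobulin (A2M) fell by 1.87 in Hep3B and rose by 0.53 in Huh7, and angiotensinogen (AGT) fell by 1.68 and rose by 0.58. Albumin (ALB) itself was opposite, at -0.54 and 0.63. The exceptions on the coagulation list were F13B and HRG, whose response was higher in Hep3B by 1.25 and 1.31.

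The complement, iron, bile acid and urea lists leaned the same way. Of 27 complement genes 9 were opposite with Hep3B lower and 0 with Hep3B higher, and of 23 iron genes 10 and 1. Ceruloplasmin (CP), the copper oxidase that loads iron on transferrin, had 207, 222 and 196 CPM in Hep3B shSLC6A8 against 709, 654 and 633 CPM in Hep3B shNC, and 118, 111 and 109 CPM in Huh7 shSLC6A8 against 60.0, 55.6 and 62.8 CPM in Huh7 shNC. On the same list ferritin light chain (FTL) and HMOX1 went the other way, with differences of 1.15 and 3.28, although FTL has many pseudogene copies and is uncertain for that reason. Of 21 bile acid genes 6 were opposite with Hep3B lower, and of 15 genes of urea and arginine metabolism 7 were, or 4 under library totals, with 2 opposite the other way under both scalings. Under library totals the Hep3B median of the iron list turned to 0.02 in place of -0.16, with 8 genes opposite with Hep3B lower in place of 10. The complement median shrank to -0.02 in place of -0.20. On that list 7 genes were then opposite with Hep3B lower and 1 with Hep3B higher, in place of 9 and 0. The urea median was -0.09 in place of -0.27.

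Liver transcription factors differed mainly through Huh7. Of 26, 22 rose in Huh7 and 1 fell, while in Hep3B 6 rose and 8 fell, a balance that library totals turned to 9 and 6, and the difference was lower in Hep3B for 18 and higher for 2. NR1H4, the bile acid receptor FXR, had 4.39, 5 and 5.07 CPM in Hep3B shSLC6A8 against 10.7, 10.5 and 11.6 CPM in Hep3B shNC, and 114, 116 and 112 CPM in Huh7 shSLC6A8 against 51.2, 49.6 and 50.6 CPM in Huh7 shNC. It fell by 1.18 in Hep3B and rose by 1.18 in Huh7, with no overlap in either line. FOXA1, which opens chromatin at liver genes, rose by 1.81 in Huh7, and its Hep3B effect of 0.12 did not pass the test (adjusted p = 0.113). The exceptions were the factors GATA6 and CEBPB, whose response was higher in Hep3B by 1.01 and 1.49. The CEBPB call was lost without Hep3B shNC replicate 1, and its difference ranged over 1.10 to 1.70 among the 21 alternative settings.

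Chaperones of the endoplasmic reticulum, which fold secreted proteins, moved beside the secretory genes. Of 25, 20 fell and 0 rose in Hep3B, 13 rose and 5 fell in Huh7, and 10 were opposite with Hep3B lower, 7 under library totals. HSPA5, the chaperone BiP, had 661, 622 and 660 CPM in Hep3B shSLC6A8, against 938, 982 and 965 CPM in Hep3B shNC. In Huh7 it had 1614, 1595 and 1597 CPM with shSLC6A8, against 926, 973 and 941 CPM with shNC. The lines were level in control cells, with a gap of 0.02, and stood 1.31 apart with shSLC6A8. PDIA4, a disulfide isomerase, had the lowest adjusted p for the difference on this list (-1.47 ± 0.06, adjusted p = 3.11e-12).

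Mitochondrial fuel use leaned the same way with smaller steps. Of 21 citric acid cycle genes 16 were lower in Hep3B by the difference and 1 higher, and 7 were opposite with Hep3B lower, among them IDH2, which makes NADPH in mitochondria, at -0.88 in Hep3B and 0.87 in Huh7. Of 28 fatty acid oxidation genes 18 were lower and 2 higher, with 7 opposite. Under library totals the Hep3B median shrank to -0.07 in place of -0.25 for the citric acid cycle, and to -0.03 in place of -0.21 for fatty acid oxidation. Citric acid cycle genes then had 12 lower and 3 higher by the difference, and fatty acid oxidation genes 17 and 2. Opposite with Hep3B lower were then 5 and 6. For nuclear genes of the respiratory chain the split under TMM was 16 lower and 8 higher of 47, with a median difference of 0.02. Of these 47, 10 were opposite with Hep3B lower (21.3%, beside 6.62% of all genes) and 2 with Hep3B higher, and under library totals the medians turned to 0.06 in Hep3B and 0.01 in Huh7, in place of -0.12 and -0.09, with 7 and 2 opposite. GLUD1, which feeds glutamate into the citric acid cycle and was counted with the urea genes, fell by 0.36 in Hep3B and rose by 1.24 in Huh7.

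Mitosis genes differed in a single direction: 35 of 39 had a lower response in Hep3B and 0 a higher one (2 under library totals). In Huh7 36 rose and 0 fell, with a median of 0.71. In Hep3B 16 fell and 0 rose, with a median of -0.14, but this small fall depends on scaling, since under library totals the median was 0.04, 16 rose, 3 fell, and the count of opposite genes went to 3 in place of 16. CCNA2, the cyclin of S phase and mitotic entry, had 100, 101 and 100 CPM in Hep3B shSLC6A8 against 114, 109 and 114 CPM in Hep3B shNC, and 125, 121 and 118 CPM in Huh7 shSLC6A8 against 55.8, 54.0 and 53.5 CPM in Huh7 shNC. The transcription factor FOXM1 and the spindle protein TPX2 moved likewise, with differences of -1.17 ± 0.06 and -1.0. DNA replication genes, in contrast, rose in both lines, 24 of 44 in Hep3B and 37 in Huh7, and 23 had a lower response in Hep3B.

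**Figure D3:**
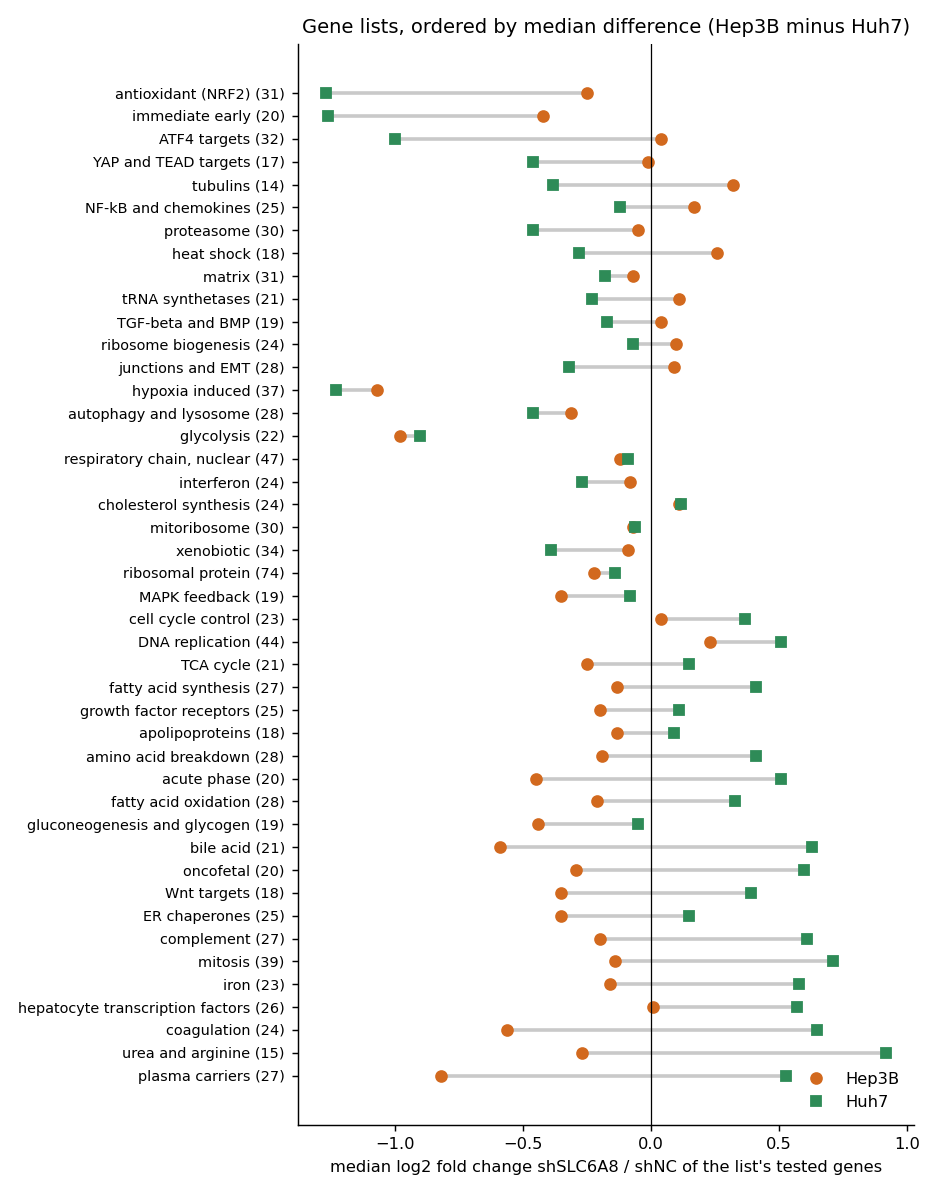
Median log2 fold change of shSLC6A8 over shNC per gene list in Hep3B (circles) and Huh7 (squares), for lists of at least 14 tested genes (number in parentheses; 1 such list is not shown), ordered by the median difference. Squares lie left of circles in the lists at the top and right of them in those at the foot; under library totals small negative Hep3B medians such as mitosis (-0.14), proteasome (-0.05) and iron (-0.16) turn positive (0.04, 0.13 and 0.02).

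Stress and supply genes leaned the other way. Of 32 targets of ATF4, the factor that answers amino acid shortage, 22 were higher in Hep3B by the difference and 5 lower. In Huh7 22 fell and 6 rose, with a median of -1.0, whereas in Hep3B 9 rose and 11 fell, with a median of 0.04 (16 and 8 under library totals). SLC3A2, the heavy chain that partners SLC7A5, had 106, 95.5 and 105 CPM in Hep3B shSLC6A8 against 95.7, 97.0 and 97.6 CPM in Hep3B shNC, and 147, 149 and 159 CPM in Huh7 shSLC6A8 against 690, 706 and 685 CPM in Huh7 shNC. Its Hep3B groups overlapped while SLC7A5 rose there. The asparagine synthetase ASNS rose by 0.40 in Hep3B and fell by 1.68 in Huh7, and among the 5 exceptions NUPR1 and ALDH18A1 had a lower response in Hep3B, at -2.31 and -1.59.

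Of 21 transfer RNA synthetases, which load amino acids for translation, 7 were opposite with Hep3B higher (33.3%, beside 5.36% of all genes), and 13 had the higher response in Hep3B and 5 the lower. Under library totals 11 were opposite in this way and 19 rose in Hep3B, in place of 10, while 1577 of all genes were opposite in place of 996. CARS1, which charges cysteine, had 80.1, 80.4 and 81.4 CPM in Hep3B shSLC6A8 against 54.8, 57.8 and 55.8 CPM in Hep3B shNC, and 37.8, 41.9 and 35.9 CPM in Huh7 shSLC6A8 against 87.3, 84.7 and 82.4 CPM in Huh7 shNC. The order of the lines turned. Among the 5 with a lower response in Hep3B were VARS1, QARS1 and IARS1, at -0.68, -0.69 and -0.38. Of 18 heat shock genes 10 were higher in Hep3B and 1 lower, with DNAJB4 (difference 2.40) and the co-chaperone BAG3 (1.95) in front.

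Tubulins split by isotype. Of 14, 10 were higher in Hep3B and 2 lower, beside 23.1% and 24% of all genes. Opposite with Hep3B higher were 5 (35.7%, beside 5.36% of all genes), and 1 was opposite with Hep3B lower. Under library totals these counts were 7 and 0, while 1577 of all genes were opposite with Hep3B higher in place of 996. TUBB3, the beta-tubulin typical of neurons and of many tumours, had 165, 146 and 168 CPM in Hep3B shSLC6A8 against 47.9, 53.4 and 53.2 CPM in Hep3B shNC, and 23.0, 20.5 and 22.3 CPM in Huh7 shSLC6A8 against 48.3, 54.0 and 47.0 CPM in Huh7 shNC. The gap was 2.87 on the log2 scale with shSLC6A8, against 0.05 with shNC. The abundant TUBB had the reverse, smaller pattern, -0.16 in Hep3B and 0.80 in Huh7. Tubulin genes are near copies of each other, so the split of reads between them is uncertain.

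Antioxidant and proteasome genes differed mainly by falls in Huh7. All 31 tested genes of the NRF2 antioxidant list fell in Huh7, and in Hep3B 13 fell and 4 rose, or 9 and 8 under library totals. The difference was higher in Hep3B for 25 and lower for 2. HMOX1, which degrades haem, had 13.6, 12.5 and 12.6 CPM in Hep3B shSLC6A8 against 13.8, 13.6 and 15.9 CPM in Hep3B shNC, and 41.9, 37.3 and 42.7 CPM in Huh7 shSLC6A8 against 427, 467 and 424 CPM in Huh7 shNC. It fell by 3.44 in Huh7, while its Hep3B effect of -0.16 did not pass the test (adjusted p = 0.142). Of 30 proteasome genes 28 fell and 0 rose in Huh7, and in Hep3B 6 fell and 2 rose, which under library totals became 0 and 15. The difference was higher in Hep3B for 24 and lower for 0, with PSMC4, an ATPase of the regulatory particle, at 1.08 ± 0.08.

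Immediate early and YAP and TEAD target genes had median differences of 1.14 and 0.80. Of 20 immediate early genes 17 fell in Huh7 and 13 in Hep3B, and 14 had the higher response in Hep3B, among them ATF3 (2.58), DUSP1 (2.20) and JUN (1.18). EGR1 was an exception: it fell by 1.80 in Hep3B, and its effect in Huh7 was -0.02 (adjusted p = 0.901). The chemokine CXCL8, from the NF-kB list, was opposite: it had 74.5, 75.7 and 78.5 CPM in Hep3B shSLC6A8 against 52.2, 47.5 and 47.7 CPM in Hep3B shNC, and 89.7, 90.5 and 93.0 CPM in Huh7 shSLC6A8 against 392, 416 and 407 CPM in Huh7 shNC.

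Genes that oxygen shortage induces mostly fell in both lines, but by unequal amounts. Of 37, 33 fell and 1 rose in Hep3B, and 31 fell and 3 rose in Huh7, with medians of -1.07 and -1.23 and a median difference of 0.15. The difference was called for most of them in one direction or the other, 16 higher and 12 lower in Hep3B, and the gap between the lines narrowed for 11 and widened for 13 (35.1%, beside 15.3% of all genes). LOX, which cross-links collagen, fell by 2.04 in Hep3B and rose by 0.57 in Huh7, and EPO fell by 1.53 and rose by 0.94, whereas EGLN1, an oxygen sensor, had an effect of 0.11 in Hep3B, which missed the threshold, and fell by 1.23 in Huh7. Of 22 glycolysis genes 16 fell in each line, beside 18.8% of all genes in Hep3B and 26.9% in Huh7. Of 74 ribosomal protein genes 7 had a lower and 0 a higher response in Hep3B, which under library totals became 4 and 7. Differences were thus rarer on this list than among all genes tested, of which 24% were lower and 23.1% higher.

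Whether the knockdown brought the lines together was asked first over all genes. The distance between a Hep3B and a Huh7 library was the root mean square difference of log2 CPM over 18570 genes. It averaged 2.013 over the 9 pairs with shSLC6A8 and 2.168 over the 9 pairs with shNC, a ratio of 92.9%, and no pair of one kind reached the range of the other. An exact two-sided permutation of the hairpin labels within each line gave p = 0.005, the smallest that its 400 arrangements can give. The shift was small beside the distance itself and is to be read against distances of 0.436 to 0.513 between replicates of one group. Restricted to 11857 genes of higher level the distance was 1.089 with shSLC6A8 against 1.26 with shNC, and by the rank measure 1 minus Spearman's rho it was 0.1536 against 0.1782 (exact permutation p = 0.01). Pairs that mixed hairpins were at 2.14 (Hep3B shSLC6A8 with Huh7 shNC) and at 2.04 (Hep3B shNC with Huh7 shSLC6A8), so that changing the hairpin in Huh7 took off more of the distance than changing it in Hep3B.

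**Figure D4:**
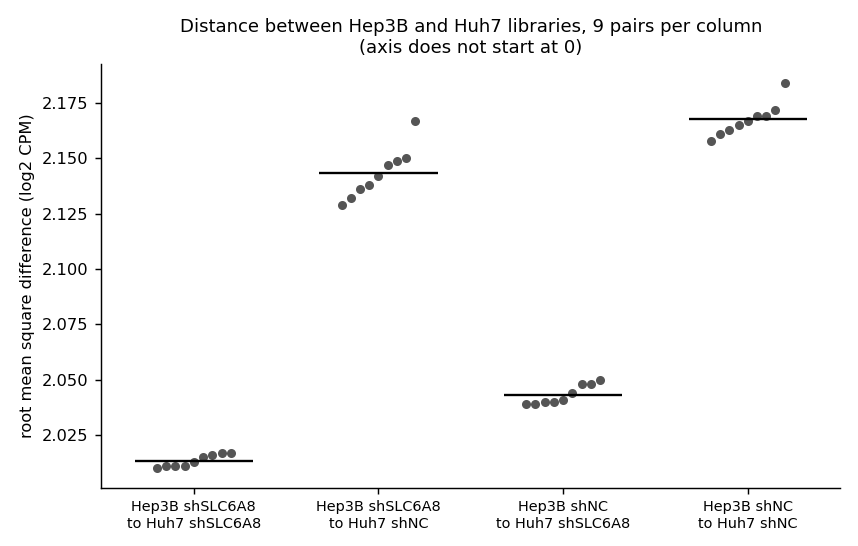
Root mean square difference of log2 CPM between Hep3B and Huh7 libraries (points, 9 pairs per column; bars are means) for the 4 pairings of hairpins; the vertical axis does not start at 0. Pairs with shSLC6A8 in both lines lie near 2.01 and pairs with shNC in both near 2.17, and both columns with Huh7 shSLC6A8 lie under both columns with Huh7 shNC.

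A principal component analysis of the 12 libraries put the lines apart on the first component, with 83.9% of the variance. Hep3B stood at 133 to 135 with shSLC6A8 and 137 to 138 with shNC, and Huh7 at -127 to -126 with shSLC6A8 and -146 to -145 with shNC. The second component (6.23%) separated the hairpins in Huh7 and the third (3.63%) separated them in Hep3B. Components are at right angles by construction, so this split does not show that the responses were unrelated. In both lines 2322 genes changed in the same direction. On the line axis, the knockdown libraries of both lines lay closer to the middle than the controls.

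Gene by gene, a gap between the lines was called narrowed or widened where both the mean gap over the hairpins and the difference of response passed the test, with opposite signs for narrowed and the same sign for widened. The gap narrowed for 4898 genes (26.4% of genes tested) and widened for 2832 (15.3%). Among narrowed genes, the larger effect was a called one in Huh7 for 3369 and a called one in Hep3B for 1345. The 2566 narrowed genes that were higher in Hep3B on average had a median gap of 0.57 with shSLC6A8, against 1.47 with shNC, and the 2332 higher in Huh7 had -0.43 against -1.26. Over all genes the median absolute gap was 0.847 with shSLC6A8 and 0.981 with shNC. Genes with opposite effects went both ways: 576 of 996 and 703 of 1230 narrowed, and 316 and 409 widened. These shares were similar to those of all 8754 genes with a called difference, of which 4898 narrowed and 2832 widened.

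Defence and turnover genes came together. Of 31 antioxidant genes 25 narrowed and 1 widened, and the median absolute gap was 1.87 with shSLC6A8 against 2.61 with shNC. Of 30 proteasome genes 23 narrowed and 0 widened (0.74 against 1.29), and of 23 iron genes 15 narrowed and 6 widened (0.71 against 1.62). The iron list had more of both kinds than all genes tested, at 65.2% narrowed and 26.1% widened beside 26.4% and 15.3%. GCLM, a subunit of the enzyme that starts glutathione synthesis, had 9.38, 9.43 and 9.21 CPM in Hep3B shSLC6A8 against 10.3, 9.49 and 9.99 CPM in Hep3B shNC, and 58.6, 63.0 and 60.7 CPM in Huh7 shSLC6A8 against 290, 303 and 319 CPM in Huh7 shNC. The gap was -2.70 with shSLC6A8 against -4.94 with shNC, and the Hep3B effect of -0.09 did not pass the test (adjusted p = 0.413). Narrowed genes also outnumbered widened ones among TGF-beta and BMP genes (11 and 1 of 19), heat shock genes (9 and 2 of 18) and ribosome biogenesis genes (10 and 1 of 24). The same held for oncofetal genes (10 and 2 of 20) and liver transcription factors (14 and 5 of 26), and in these last lists Huh7 moved up. HMGA2, a chromatin protein of embryonic cells, had 133, 153 and 128 CPM in Hep3B shSLC6A8 against 228, 206 and 210 CPM in Hep3B shNC, and 224, 226 and 211 CPM in Huh7 shSLC6A8 against 34.6, 30.9 and 32.7 CPM in Huh7 shNC.

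The Wnt antagonist DKK1 narrowed from both sides, with 507, 461 and 507 CPM in Hep3B shSLC6A8 against 816, 869 and 860 CPM in Hep3B shNC, and 118, 115 and 116 CPM in Huh7 shSLC6A8 against 24.8, 25.9 and 24.1 CPM in Huh7 shNC. TXNIP, which restrains glucose uptake, rose in both lines but by unequal amounts, 3.40 in Hep3B and 0.65 in Huh7. It had 151, 149 and 155 CPM in Hep3B shSLC6A8 against 15.9, 13.6 and 13.6 CPM in Hep3B shNC, and 63.4, 63.9 and 64.2 CPM in Huh7 shSLC6A8 against 41.1, 40.0 and 41.2 CPM in Huh7 shNC. The line that was lower became the higher one.

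In other functions more genes widened than narrowed. Of 20 acute phase genes 10 widened and 3 narrowed, with a median absolute gap of 2.70 with shSLC6A8 against 1.99 with shNC. Of 15 genes of urea and arginine metabolism 8 widened and 4 narrowed. The median absolute gap of this list was nevertheless smaller with shSLC6A8 than with shNC, so the count and the median went different ways. Of 14 tubulin genes 7 widened (50%) and 5 narrowed (35.7%), both above the shares of all genes, with gaps of 1.28 against 0.46. ORM2, an acute phase glycoprotein, fell by 1.71 in Hep3B, already the lower line, and rose by 0.42 in Huh7. UGT2B4, which conjugates bile acids, had 11.9, 12.7 and 11.8 CPM in Hep3B shSLC6A8 against 42.3, 40.8 and 41.4 CPM in Hep3B shNC, and 144, 140 and 144 CPM in Huh7 shSLC6A8 against 61.0, 60.2 and 61.1 CPM in Huh7 shNC, which took the gap to -3.56, against -0.55 in control cells. The liver-protein lists thus held both kinds: plasma carriers had 10 narrowed and 11 widened of 27, coagulation 12 and 8 of 24, and complement 11 and 11 of 27.

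**Figure D5:**
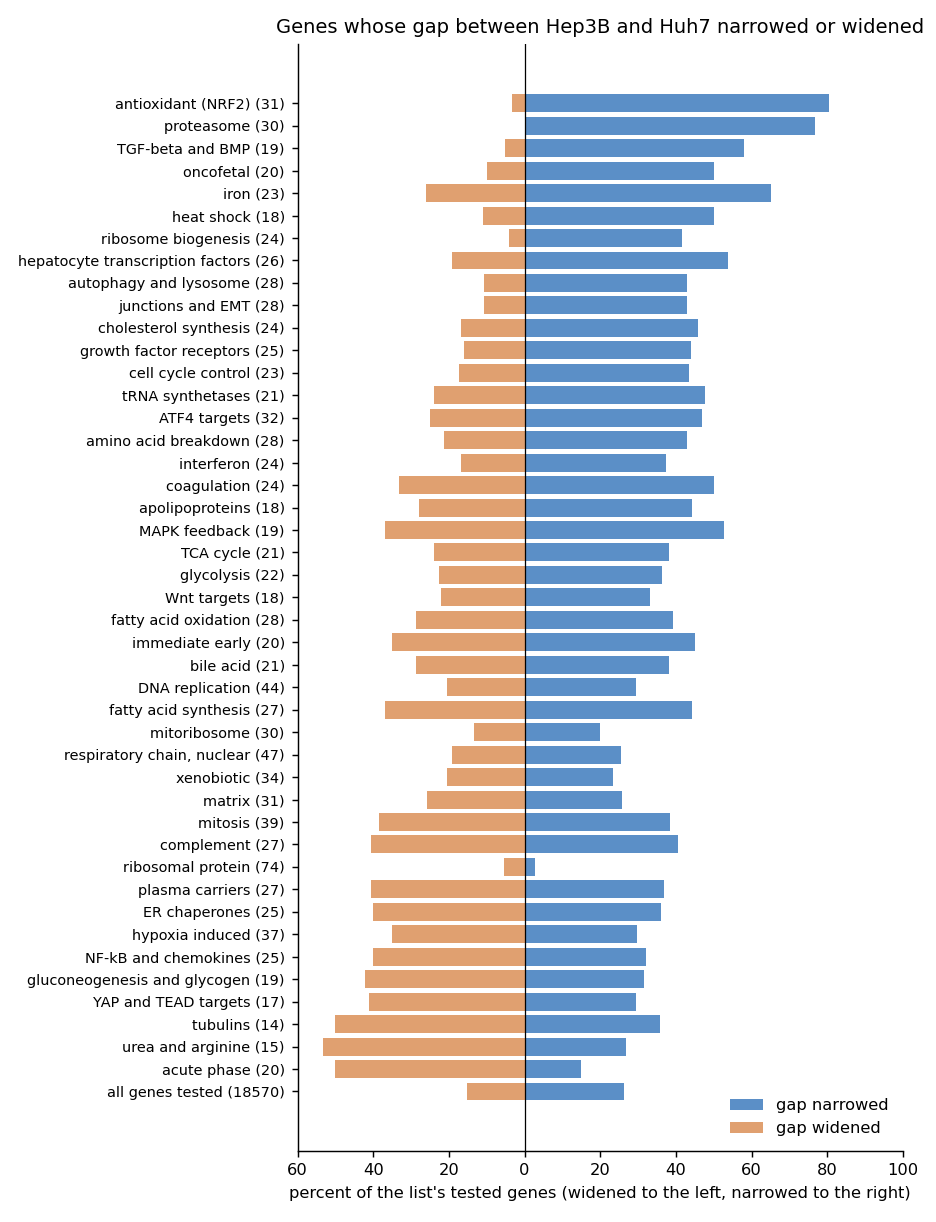
Percent of each list's tested genes whose gap between Hep3B and Huh7 narrowed (bars to the right) or widened (bars to the left) with shSLC6A8, for lists of at least 14 genes (number in parentheses; 1 such list is not shown), ordered by the excess of narrowed genes, with all genes tested in the bottom row (26.4% and 15.3%). Antioxidant and proteasome genes stand at the top, and tubulin, urea and arginine, and acute phase genes lowest among the lists.

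For 1073 genes (5.78% of genes tested) the order of the lines turned, meaning that the gap passed the test with each hairpin but with opposite signs. Mitosis genes had 14 such turns among 39, where the higher level passed from Hep3B in control cells to Huh7 in knockdown cells for members such as CCNA2 (gap -0.28 with shSLC6A8 against 1.04 with shNC) and FOXM1 (-0.14 against 1.03).

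The authors' deposited tables, which compare the hairpins within each line, mark 257 genes as significant in both lines, and 109 of these have opposite signs there, 33 higher in Hep3B and 76 lower. Of the 109, 108 were also called opposite by the fit of 12 libraries, in the same directions, although both rest on the same libraries.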

How the data were processed

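Per the file headers, the authors deposited 1 table per line with estimated counts and TPM per gene and library, and their own fold, log2 fold change and p-value columns for shSLC6A8 over shNC. Per the submitters' processing notes reads were placed on GRCh38.p14. The sources used here do not give the aligner, counter, strand setting or comparison tool. RNA was isolated with the RNAfast-2000 kit, per the labels. The estimated counts of 12 libraries were joined by gene identifier, rounded to whole numbers and filtered with filterByExpr. One model of 4 group means was fitted with edgeR's quasi-likelihood test (edgeR 4.0.16, R 4.3.3, robust dispersion, TMM over all libraries), and p-values were Benjamini-Hochberg adjusted over 18570 genes at 0.05. Standard errors were derived from the F statistic and are approximate. The method was tested on simulated data. TPM was not used for tests, since it keeps no depth. Distances used log2 CPM with a prior count of 2.

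Alternatives were DESeq2 1.42.0, limma-voom 3.58.1, other scalings and filters, a replicate block, and leaving out each library. Gene lists and members were chosen with earlier results of these data known, so no list is independent support. The text names SLC6A8, the 8 largest differences per direction and the 8 clearest opposite genes per pattern among genes whose log2 CPM averaged 1 or more in each line (the largest differences also with no overlap between hairpins), up to 3 members per list and direction by adjusted p, and the 6 largest narrowed, widened and turned genes within the same level limit, some left out for length or not reported here, and ALB as a marker. A total of 1455 symbols occur more than once, and rows were kept apart by identifier.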

Additional observations from a re-analysis of the deposited data

Results flagged for a closer look

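The difference of response between the lines was itself tested, as the interaction of line and hairpin in the fit of 12 libraries by edgeR's quasi-likelihood test, and 8754 genes passed it. Of these, 996 were higher in Hep3B and lower in Huh7, and 1230 the reverse. The clearest genes of the first pattern had differences (Hep3B effect minus Huh7 effect, log2) of 4.01 for MAP1B, 3.81 for TNFRSF9, 3.42 for DYNLRB2-AS1, 3.19 for CDC42EP2, 3.06 for SLC7A5, 2.99 for HES4, 2.71 for NRP2 and 2.62 for KRT10. Those of the second had -4.80 for IP6K3, -4.37 for AGXT, -4.26 for ATP2B2, -3.76 for SORL1, -3.65 for ARG1, -3.52 for ANXA13, -3.35 for TNFSF4 and -3.29 for FABP1. Each moved in opposite directions in all 3 libraries of either line, with no overlap between hairpins. These genes were picked for having large effects in both lines, so the sizes describe them and the pick favours large values. The other genes named with a called difference passed the same test, and their values stand in the results.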

How the results depend on the processing

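Of 750 recomputed values, 742 kept their direction and their side of the threshold, or stayed within 1.5 times for counts. Most of the 750 belong to 26 leading named genes, each recomputed under every setting. Apart from SLC6A8 these were picked for large effects in the same data, so their stability says little about other genes. At an absolute log2 difference of at least 1, 3079 genes were called, 1442 higher and 1637 lower in Hep3B, with 456 and 716 opposite, 1801 narrowed and 875 widened. Scaled by library totals, 1577 genes were opposite with Hep3B higher, in place of 996, and they made up 65.4% of opposite genes against 44.7%, while the other scalings and tools gave 41.7% to 44.5%. Leaving out 1 library gave 8152 to 8951 differences, 3936 to 4383 higher and 4204 to 4568 lower, 5797 to 7187 genes changed in Hep3B and 9303 to 10465 in Huh7, 800 to 1024 and 1082 to 1242 opposite, 4550 to 4910 narrowed, 2567 to 2938 widened and a distance change of -0.1571 to -0.1505. Of 281 named genes, 189 kept the call in all 21 settings, 84 lost it only at the log2 limit of 1, 8 lost it in another setting and 0 reversed. Replicate numbers did not pair the libraries: same-number correlations of deviations were -0.065 to 0.052, and only 1 library of each line correlated best with its own number. With the replicate number as a block, 8380 differences, 912 and 1137 opposite genes, 4683 narrowed and 2686 widened were called. DESeq2 called 8738 differences and limma-voom 8804. Genes of about 1 CPM are limited by depth, and p-values rest on 3 libraries per group.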

Other observations

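Among KEGG pathways that the results do not describe, breakdown of valine, leucine and isoleucine stood out on the side of Huh7: of 44 genes tested, 29 had a lower response in Hep3B and 4 a higher one. The median effect was -0.09 in Hep3B, which turned to 0.09 under library totals, and 0.46 in Huh7. Propanoate metabolism had 20 lower and 1 higher of 28, and glyoxylate metabolism 17 and 0 of 27, with 9 genes opposite, or 2 under library totals. Peroxisome genes had 36 lower and 11 higher of 73, and genes of PPAR signalling 28 and 7 of 54. In the other direction, spliceosome genes had 54 higher and 23 lower of 125, and ribosome biogenesis 29 and 5 of 66. These counts are to be read beside all genes tested, of which 24% had a lower response in Hep3B and 23.1% a higher one.

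Organelles of turnover came closer between the lines. Of 118 lysosome genes 57 narrowed and 16 widened, although their median difference of response was -0.09, or 0.00 under library totals. Of 73 peroxisome genes 30 narrowed and 10 widened, and of 31 ferroptosis genes 19 and 4, beside 26.4% and 15.3% of all genes tested. These pathways were chosen after their values were seen, overlap with each other and with the lists above, and carry no test.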
